A study of Homo sapiens with 3 samples.

Results

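The captured HindIII restriction fragments around the breast cancer risk variants of 2q35 were examined, that is, the captured fragments of chromosome 2 whose start lay between 217.8 and 218.1 Mb (GRCh37). The rule used position alone and no measured value. It took 101 of the 1077 captured fragments of the series and 101 of the 227 captured at 2q35. The stretch ran from 217809692 to 218110682, 199.9 kb inside the centromeric end of the captured region and 252.1 kb inside its telomeric end. Its fragments were 56 to 19644 bp long, with a median of 2103 bp. Of these, 11 adjoining fragments, with starts from 217891188 to 217929191, overlapped the interval from 217.9 to 217.93 Mb in which the risk variants lie, and are called the risk-variant fragments here. The other 90 fragments of the stretch flank them.

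Risk variants at 2q35 lie in an interval without protein-coding genes between TNP1, which encodes a transition protein of spermatid chromatin, and DIRC3, a long non-coding RNA gene. Such variants are commonly studied through the distant sequences that their chromatin touches, because enhancers can act on promoters far along the chromosome. IGFBP5, which encodes a secreted protein that binds insulin-like growth factors, lies on the centromeric side and has been studied as a candidate target of this locus. Capture Hi-C records such contacts: DNA in fixed nuclei is cut, ends that lie close together are ligated, and pairs with an end in chosen fragments are pulled out with probes and sequenced. The series used it to ask which sequences the risk regions contact in breast cells.

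The contacts were counted in BT483, a line from a primary invasive ductal carcinoma, in SUM44, a breast cancer line from a pleural effusion, and in GM06990, a lymphoblastoid line from B lymphocytes. All were fixed in 2% formaldehyde for 5 min. BT483 was grown with insulin and lysed with trypsin, SUM44 was grown with estradiol in medium free of phenol red and lysed with a dounce, and GM06990 was also lysed with a dounce. Lysis, culture and line therefore cannot be told apart. Each line was 1 sample with 2 replicates (n = 2 per line), and nothing said that these were separate cultures, so all p-values measure only the spread between these 6 libraries, which may be technical. An exact permutation test of 2 against 2 libraries cannot go below p = 0.333, so tests were fitted across all captured fragments or target windows.

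Cis contacts here are ligated pairs with targets on chromosome 2 outside the captured region, on its centromeric or telomeric side. These targets lay between 212600001 and 223400000, so farther pairs along chromosome 2 were not counted. Trans contacts of a captured fragment are its pairs with other chromosomes. The stretch held 10426 cis and 79593 trans contacts in BT483 replicate 1 and 75759 and 362719 in replicate 2. It held 136496 and 218222 in SUM44 replicate 1, 123438 and 226259 in replicate 2, 48503 and 157197 in GM06990 replicate 1, and 45240 and 327711 in replicate 2. BT483 replicate 1 was thus the shallowest library, and single fragments there rest on few contacts. No molecular identifiers marked the amplified pairs, and any interval given for a count covers counting error alone. At least 50 cis contacts in 1 line were reached by 93 of the 101 fragments and by 185 of their 202 fragment-sides (a fragment taken with 1 of its 2 sides). The 8 fragments below that limit had at most 57 cis contacts and 8 to 195 trans contacts over all 6 libraries, against at least 142 cis and 336 to 36473 trans contacts for the 93 others. A fragment that was barely captured tells nothing about its contacts at this depth.

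The stretch differed most between SUM44 and the other lines in its cis contact, within the range counted, per trans contact. Its cis contacts per trans contact were 0.131 and 0.209 in BT483, 0.625 and 0.546 in SUM44, and 0.309 and 0.138 in GM06990, 1 value per replicate. The SUM44 libraries stood above all others, while BT483 replicate 2 lay within the range of GM06990 and replicate 1 just below it. The replicates of GM06990 were far apart. As means the stretch had 0.170 ± 0.0551 in BT483, 0.586 ± 0.0565 in SUM44 and 0.223 ± 0.121 in GM06990 (SD, n = 2 each). The other 126 captured fragments of 2q35 had 0.183 ± 0.0626 in BT483, 0.671 ± 0.0681 in SUM44 and 0.246 ± 0.140 in GM06990. The captured fragments of the other regions had 0.261 ± 0.0510 in BT483, 0.822 ± 0.0681 in SUM44 and 0.278 ± 0.154 in GM06990. The high level of SUM44 was thus seen in all 3 sets and not in the stretch alone.

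All 11 risk-variant fragments were well captured. In BT483 replicate 1 they had from 109 to 282 cis contacts each (median 158), in replicate 2 from 716 to 2090 (median 1269), in SUM44 from 1471 to 2898 (median 2197) and from 1201 to 2806 (median 2010), and in GM06990 from 405 to 1096 (median 717) and from 391 to 1062 (median 603). The fragment with the most cis contact for its trans contact was that from 217912886 to 217925467, which at 12582 bp was also the longest of the 11. It had 0.216 and 0.364 cis contacts per trans contact in BT483, 1.02 and 1.20 in SUM44, and 0.579 and 0.249 in GM06990. The fragment with the least was that from 217908486 to 217909928 in BT483, with 0.102 and 0.156, against 0.435 and 0.393 in SUM44 and 0.253 and 0.120 in GM06990. The fragment at 217912886 was thus the higher of these 2 in 6 of 6 libraries, although its GM06990 replicates were at least as far apart as the 2 fragments were there.

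Longer fragments held more cis contact per trans contact throughout the stretch. Over the 93 fragments, Spearman's rho between length and cis contact per trans contact was 0.665 and 0.610 in BT483, 0.770 and 0.838 in SUM44, and 0.802 and 0.787 in GM06990. Between trans and cis contacts of a fragment rho was 0.803 to 0.940 in the 6 libraries. These are descriptions across fragments of the same libraries, which share depth and capture, and length was not a term in any fit. Single fragments spanned from 0.056 to 0.216 cis contacts per trans contact (median 0.130) in BT483 replicate 1 and from 0.107 to 0.364 (median 0.208) in replicate 2. In SUM44 they spanned from 0.314 to 1.17 (median 0.597) and from 0.275 to 1.25 (median 0.561), and in GM06990 from 0.142 to 0.595 (median 0.289) and from 0.072 to 0.335 (median 0.129).

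Each fragment-side was then compared between the lines with its own trans contacts as the measure of capture and depth. This used edgeR's quasi-likelihood test with Benjamini-Hochberg adjustment over the 2033 fragment-sides of all captured regions and a threshold of 0.05. In BT483 against GM06990, 0 of the 185 fragment-sides of the stretch passed, and 0% of all fragment-sides did. The count at an unadjusted p under 0.05 was also 0 with edgeR, and DESeq2 called 0. The median log2 change over the stretch was -0.35, against -0.39 over the other fragment-sides of 2q35 and -0.10 over all fragment-sides outside the stretch. All 93 telomeric sides had values below 0, from -1.17 to -0.01, and 67 of the 92 centromeric sides did. Both sides together, 160 of 185 were below 0, against 207 of 245 other fragment-sides of 2q35 and 1209 of 2033 of all regions. With TMM library sizes in place of trans contacts 10 fragment-sides were called lower, and without GM06990 replicate 2 there were 12.

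In SUM44 against GM06990, 110 of the 185 fragment-sides of the stretch were higher and 0 lower. That is 59.5%, against 60.4% of the other fragment-sides of 2q35 and 79.8% of all fragment-sides. The stretch thus did not stand above the background. The centromeric sides were called in 71 of 92 cases and the telomeric sides in 39 of 93. Calls by side were not counted outside the stretch. The largest called changes were on the telomeric side of the fragment from 218046732 to 218049401, which had 0.379 and 0.334 contacts per trans contact in SUM44 against 0.126 and 0.053 in GM06990 (log2 change 2.02, SE 0.71, adjusted p = 0.0319), and on the centromeric sides of the fragments that start at 218037086 (2.01) and 217850118 (2.00). The smallest called changes were 1.38 for the telomeric side of 217948077, 1.40 for the centromeric side of 217970818 and 1.41 for the telomeric side of 217969511. Among the risk-variant fragments, 8 of 11 centromeric sides were called higher and 0 of 11 telomeric sides. The whole stretch lay between 0.80 and 2.02, all above 0, as were 2030 of the 2033 fragment-sides of all regions.

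In BT483 against SUM44, 160 of the 185 fragment-sides were lower and 0 higher. That is 86.5%, against 91.0% lower among the other fragment-sides of 2q35 and 79.4% among all. The median was -1.87 in the stretch, -1.89 in the other fragment-sides of 2q35 and -1.77 in all fragment-sides outside the stretch. The lowest called value was that of the telomeric side of the fragment from 218046589 to 218046731, with 0.020 and 0.092 contacts per trans contact in BT483 against 0.327 and 0.328 in SUM44 (log2 change -2.45, SE 0.71, adjusted p = 0.0130). That fragment had only 5 and 56 telomeric contacts in BT483, so its level there is poorly known. Of the risk-variant fragments, 8 centromeric and 9 telomeric sides were called lower. Both counts against SUM44 depend on single libraries: without either library of BT483 or either of SUM44 there were 0 calls in SUM44 against GM06990 and 0 in BT483 against SUM44. Without GM06990 replicate 1 they were 183 and 183, and without its replicate 2 they were 65 and 183. With TMM library sizes there were 0 calls in SUM44 against GM06990 and 35, all lower, in BT483 against SUM44.

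To set the library-wide difference aside, the trans contacts were scaled so that the median fragment-side of all regions had the same cis contact per trans contact in each library, a choice made after these counts had been seen. Then 1 fragment-side of the stretch was higher and 32 were lower in BT483 than in GM06990, against 11.1% higher and 9.64% lower among all (20.8% in either direction). The lower share was 17.3% in the stretch and 23.3% among the other fragment-sides of 2q35, of which 1.63% were higher. Of the 32, 28 were telomeric sides, of 93 such sides tested in the stretch. How calls split by side outside the stretch was not counted. The lowest was the centromeric side of the fragment from 218087854 to 218089503 (log2 change -1.22, SE 0.36, adjusted p = 0.0216). Of the 11 risk-variant fragments, 7 were called lower on the telomeric side, by -0.51 to -0.81, and 0 were called on the centromeric side.

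With the same scaling, 0 fragment-sides were higher and 8 lower in SUM44 than in GM06990, against 0.59% higher and 2.95% lower among all (3.54% in either direction). The lower share was 4.32% in the stretch and 4.90% among the other fragment-sides of 2q35. Of these 8, 7 were telomeric sides, and 5 of the 7 belonged to risk-variant fragments, which lie at 217907079, 217907962, 217908486, 217925468 and 217927200. The 7 were 7.53% of the telomeric sides of the stretch. No such share was counted for telomeric sides elsewhere. The lowest of the 5 had a log2 change of -0.79 (SE 0.18, adjusted p = 0.0153). BT483 and SUM44 differed at 1 fragment-side that was higher and 5 that were lower in BT483, against 8.51% and 2.71% of all (11.2% in either direction). Among the other fragment-sides of 2q35, 1.22% were higher and 7.76% lower in BT483. The side of the stretch that was higher was the centromeric side of a risk-variant fragment, that from 217907079 to 217907961 (log2 change 0.74, SE 0.20, adjusted p = 0.0229). Leaving out single libraries was not repeated with this scaling.

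The balance between the sides needs no measure of capture or depth, since both sides come from the same fragment. Over the stretch the telomeric share of cis contacts was 50.4% and 50.1% in BT483, 52.1% and 52.6% in SUM44, and 55.8% and 55.4% in GM06990. The replicates of the 3 lines did not overlap, and GM06990 leaned most to the telomere. As means these were 50.2% ± 0.213 in BT483, 52.3% ± 0.393 in SUM44 and 55.6% ± 0.256 in GM06990 (SD, n = 2 each). The other captured fragments of 2q35 had 53.2% ± 1.53 in BT483, 54.7% ± 0.102 in SUM44 and 55.8% ± 0.356 in GM06990. The risk-variant fragments had 49.8% ± 0.195 in BT483, 51.0% ± 0.566 in SUM44 and 56.7% ± 0.250 in GM06990. No test of these shares between fragment sets was run.

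Single fragments showed the same lean. The telomeric side held more contacts in 45 and 50 of the 93 fragments in BT483, in 72 and 84 in SUM44, and in 89 and 89 in GM06990. In each of the 11 risk-variant fragments the log2 ratio of telomeric to centromeric contacts was above 0 in both GM06990 replicates, from 0.26 to 0.62 in replicate 1 and from 0.23 to 0.60 in replicate 2. In BT483 it ran from -0.49 to 0.49 in replicate 1 and from -0.17 to 0.13 in replicate 2, and in SUM44 from -0.11 to 0.18 and from 0.00 to 0.21. All 11 had a lower ratio in SUM44 than both their GM06990 values, so contact was nearly even between the sides in SUM44 and tilted to the telomere in GM06990. By mean change, the ratio was lower in SUM44 than in GM06990 in 77 of the 93 fragments of the stretch. It was also lower in 86 of the 124 other fragments of 2q35 and in 554 of the 1030 of all regions. Overlap between replicates was not counted over these sets.

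The ratios were tested per fragment with limma on log2((telomeric + 1)/(centromeric + 1)), adjusted over the 1030 fragments of all regions. In BT483 against GM06990, 0 of the 93 fragments of the stretch were higher and 3 lower, against 0.485% higher and 4.56% lower among all fragments (5.05% in either direction). The 3 were the fragments from 217819874 to 217820738 (log2 change -0.86, SE 0.16, adjusted p = 0.0352), from 217846798 to 217848586 (-0.80, SE 0.16, adjusted p = 0.0437) and from 218008178 to 218008780 (-0.98, SE 0.20, adjusted p = 0.0437). The first of these had log2 ratios of -0.26 and -0.48 in BT483 against 0.52 and 0.46 in GM06990, and the groups did not overlap. The median change over the stretch was -0.33, against -0.20 over the other fragments of 2q35 and -0.17 over all fragments outside the stretch. In the stretch 82 of 93 fragments had values below 0, against 98 of 124 other fragments of 2q35 and 728 of 1030 of all regions. An unadjusted limma p under 0.05 was reached by 32 of the 93, against 254 of the 1030. The count moved with single libraries, to 22 without BT483 replicate 2 and to 0 without either replicate of SUM44 or either of GM06990.

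In SUM44 against GM06990, 0 of 93 ratios passed with limma, against 0.291% higher and 3.88% lower among all (4.17% in either direction). An unadjusted limma p under 0.05 was reached by 9 of the 93, against 266 of the 1030 fragments of all regions. The median change over the stretch was -0.19, against -0.098 over the other fragments of 2q35 and -0.0047 over all fragments outside the stretch. Without either BT483 library 3 passed. In BT483 against SUM44, 0 of 93 passed with limma, against 0.0971% in each direction among all (0.194%). An unadjusted limma p under 0.05 was reached by 11 of the 93, against 214 of the 1030 fragments of all regions. Of the 11 risk-variant fragments, all had values below 0 against GM06990 in either breast line, with a median of -0.40 in BT483 and -0.36 in SUM44, and 0 passed with limma. Their smallest adjusted p was 0.0580 in BT483 and 0.0817 in SUM44. Values below 0 were also found in 82 of the 93 fragments of the stretch in BT483 and in 77 in SUM44. These 2 comparisons share the GM06990 libraries.

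Over all 6 libraries, the fragments that leaned most to the centromere were those that start at 217945076 and 217854781 (mean log2 ratio -0.07 each) and at 217848587 (-0.04). Those that leaned most to the telomere start at 217840773 (0.67), 218075822 (0.40) and 218008781 (0.39). The first of these had only 1 to 19 contacts on the centromeric side in any library, so its ratio is imprecise. The fragment at 217854781 is the longest of the stretch, at 19644 bp, and its ratio was -0.78 and -0.35 in BT483, -0.06 and 0.10 in SUM44, and 0.49 and 0.17 in GM06990.

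Position along the stretch changed the distance to either side, and the contacts were set against that. The expected count came from a curve of contact against distance and trans contact, fitted to each replicate over all captured fragments of 2q35, and observed over expected contact is 1 where a count follows that curve. In the 28 fragments of the first 100 kb the centromeric side had 0.831 and 0.770 in BT483, 0.698 and 0.692 in SUM44, and 0.631 and 0.644 in GM06990. In the 39 fragments of the last 100 kb it had 1.11 and 1.03 in BT483, 1.10 and 1.12 in SUM44, and 0.999 and 1.01 in GM06990. Relative to the curve, centromeric contact was thus higher in the fragments farther from the centromeric side. On the telomeric side the first 100 kb had 1.32 and 1.12 in BT483, 1.27 and 1.31 in SUM44, and 1.38 and 1.29 in GM06990. The last 100 kb had 1.10 and 1.03 in BT483, 1.13 and 1.16 in SUM44, and 1.13 and 1.19 in GM06990. In all 6 libraries the fragments nearer to a side therefore had less contact with it, relative to the curve, than those farther away.

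Raw contacts, in turn, changed little along the stretch. The curves expected the telomeric share to grow, from a log2 ratio of telomeric to centromeric contacts of -0.64 to -0.85 in the first 100 kb to 0.04 to 0.19 in the last. The measured ratios of the first 100 kb were -0.04 and -0.10 in BT483, 0.03 and 0.07 in SUM44, and 0.39 and 0.33 in GM06990. Those of the last 100 kb were 0.09 and 0.05 in BT483, 0.23 and 0.24 in SUM44, and 0.29 and 0.28 in GM06990. In each library the measured ratio moved by less than the curve expected. With start position, Spearman's rho of the ratio over the 93 fragments was 0.125 and 0.309 in BT483, 0.592 and 0.552 in SUM44, and -0.330 and -0.171 in GM06990. The ratio thus grew along the stretch in SUM44, and in GM06990 it was slightly smaller at the telomeric end.

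Where the contacts went was read in windows of 50 kb, from 212600001 to 223400000 on chromosome 2 outside the captured region. Near the stretch, the window from 217550001 to 217600000 stood above the distance curve in all 6 libraries. It lies 209.7 kb centromeric of the stretch, and its observed over expected contact was 3.24 and 2.23 in BT483, 2.12 and 2.12 in SUM44, and 1.67 and 1.64 in GM06990. The counts behind these were 927 and 4256 in BT483, 10281 and 9337 in SUM44, and 2461 and 1941 in GM06990. Of the 202 windows it and the window from 218550001 to 218600000, 439 kb telomeric of the stretch, had the highest lowest value among the 6 libraries. The window at 218550001 had 2.57 and 1.97 in BT483, 2.06 and 2.07 in SUM44, and 1.78 and 1.68 in GM06990. The stretch thus had more contact than its distance curve gives with a near window on either side, in both breast lines and in the lymphoblastoid line.

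The excess was spread over the captured fragments rather than held by a few. At 217550001, 88 fragments had at least 50 contacts over the 6 libraries, and observed over expected contact was above 1 in 87 of them in BT483, in 85 in SUM44 and in 77 in GM06990, with medians of 2.21 in BT483, 2.04 in SUM44 and 1.54 in GM06990. It was higher in BT483 than in GM06990 for 75 of the 88 fragments and higher in SUM44 than in GM06990 for 77. Over all libraries the highest was the flanking fragment from 218030974 to 218036250, with 4.52 in BT483, 5.63 in SUM44 and 3.59 in GM06990. Its neighbour from 218027482 to 218030973 came next, with 3.59 in BT483, 4.78 in SUM44 and 3.09 in GM06990. The risk-variant fragment from 217912886 to 217925467 followed, with 5.48 in BT483, 3.95 in SUM44 and 2.94 in GM06990, and of these 3 it was the highest in BT483 alone. At 218550001 it was above 1 in 84 of 86 fragments in BT483 (median 1.94), in 84 in SUM44 (median 2.04) and in 79 in GM06990 (median 1.66). Here the same risk-variant fragment stood highest over all libraries, with 4.14 in BT483, 4.08 in SUM44 and 3.44 in GM06990. It is the longest risk-variant fragment, and the expected counts do not allow for length. The limit of 50 contacts was counted in the same window, so fragments with little contact there were left out. Both windows were themselves chosen for their high values. Fragments of 1 window also share that target, so these counts are no test.

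Single target fragments inside and next to these windows stood higher still. The target from 217560727 to 217563272 had 5.50 and 4.15 times its expected contacts in BT483, 3.59 and 3.58 in SUM44, and 1.84 and 2.22 in GM06990. Its neighbour from 217563273 to 217565782 had 5.14 and 3.65 in BT483, 3.30 and 3.15 in SUM44, and 2.31 and 2.07 in GM06990. For both, the 2 breast lines lay above GM06990 without overlap. On the telomeric side the target from 218576103 to 218580318 had 4.64 and 3.25 in BT483, 3.20 and 3.27 in SUM44, and 2.63 and 3.08 in GM06990. The target from 218375366 to 218376342, near the telomeric edge of the capture, had 3.87 and 4.09 in BT483, 3.24 and 3.07 in SUM44, and 2.06 and 2.88 in GM06990. In all, 6 targets, among them the last 3 named, were at 2 or more in all 6 libraries with at least 20 contacts in each, a list made after the values had been seen. No gene was assigned to a target, since no annotation of GRCh37 was used here.

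The windows were compared between the lines with edgeR's quasi-likelihood test, with the expected count of each replicate as offset and adjustment over the 1605 windows of all captured regions. In BT483 against GM06990, 24 of the 202 windows of the stretch were higher and 19 lower, against 11.4% higher and 10.7% lower among all windows (22.1% in either direction). In SUM44 against GM06990, 37 were higher and 53 lower, against 16.5% and 22.1% (38.6%). In BT483 against SUM44, 12 were higher and 4 lower, against 7.04% and 3.68% (10.7%). As shares of the windows of the stretch these were 21.3% in BT483 against GM06990, 44.6% in SUM44 against GM06990 and 7.92% in BT483 against SUM44, near the shares of all windows. The windows of the other captured fragments of 2q35 had 18%, 44.25% and 9.5% in the same order. With the trans count alone as offset, without distance, there were 0 calls in BT483 against GM06990, 63 in SUM44 against GM06990, all higher, and 68 in BT483 against SUM44, all lower. DESeq2 called 20, 47 and 4 windows in these 3 comparisons. Both breast lines are set against the same GM06990 libraries.

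The higher windows lay mainly toward the centromere and the lower ones toward the telomere. In BT483 against GM06990, 20 of the 24 higher windows were centromeric and 15 of the 19 lower ones telomeric. In SUM44 against GM06990, 33 of the 37 higher windows were centromeric and 43 of the 53 lower ones telomeric. The stretch had 101 windows on each side. Calls by side were not counted for the other fragments of 2q35 or the other regions, so this split is not particular to the stretch. The counts depended on single libraries. In BT483 against GM06990 the 43 calls in both directions became 15 without BT483 replicate 2, 23 without either SUM44 library and 16 without either GM06990 library. In SUM44 against GM06990 the 90 calls became 35 and 39 without SUM44 replicates 1 and 2, and 48 and 54 without GM06990 replicates 1 and 2.

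Next to the capture, contact relative to each library's own distance curve was higher in the breast lines than in GM06990. When distance was left out of the offset, no window of the stretch was called in BT483 against GM06990. The window at 217550001 was higher in BT483 than in GM06990 (log2 change 0.70, SE 0.13, adjusted p = 0.00209) and higher in SUM44 than in GM06990 (0.36, SE 0.13, adjusted p = 0.0447). The part of the next window, from 217600001, that lies outside the capture had 1.94 and 1.90 in BT483, 1.51 and 1.49 in SUM44, and 1.03 and 0.911 in GM06990. Against GM06990 its log2 change was 0.98 in BT483 (SE 0.11, adjusted p = 7.33e-05), while that of SUM44 was 0.63 (SE 0.10, adjusted p = 0.000518). The contrast between the breast lines themselves was 0.36 in this window (SE 0.10, adjusted p = 0.0456), and at 217550001 it was 0.35 (SE 0.13), which missed the threshold with an adjusted p of 0.1003. On the telomeric side the window at 218550001 was higher in BT483 (0.37, SE 0.12, adjusted p = 0.0379), and its value in SUM44 was 0.25 (SE 0.11, adjusted p = 0.0929).

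Just beyond, toward the centromere, contact relative to these curves was lower in the breast lines. The 3 adjoining windows from 217150001 to 217300000 were all called lower in both breast lines than in GM06990. None of these windows was called lower in either breast line with the trans count alone as offset. At 217200001 observed over expected contact was 0.450 and 0.488 in BT483, 0.390 and 0.397 in SUM44, and 0.840 and 0.826 in GM06990. The log2 change of this window was -0.81 in BT483 (SE 0.13, adjusted p = 0.000678). For SUM44 the change was -1.07 (SE 0.12, adjusted p = 2.42e-05). In SUM44 the run of lower windows reached from 217050001 to 217300000, with a median of -0.96 over 5 windows. On the telomeric side 3 windows from 218650001 to 218800000 were called lower in both breast lines, with medians of -0.44 in BT483 and -0.45 in SUM44.

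Farther toward the centromere the breast lines held more contact than GM06990, each relative to its own distance curves. No window of the stretch was called in BT483 against GM06990 with the trans count alone as offset. The 5 adjoining windows from 215900001 to 216150000 were called higher in BT483, with a median log2 change of 0.75, and 4 of them in SUM44. The window at 216050001 had 1.00 and 0.975 times its expected contact in BT483, 0.690 and 0.756 in SUM44, and 0.479 and 0.494 in GM06990 (log2 change of BT483 1.01, SE 0.18, adjusted p = 0.00170). In SUM44 a run of 7 windows from 214800001 to 215150000 was called higher, with a median of 1.11, and 4 of the 7 were called in BT483. Its strongest window, at 215000001, had 0.745 and 0.780 in BT483, 1.11 and 1.36 in SUM44, and 0.502 and 0.399 in GM06990 (log2 change of SUM44 1.44, SE 0.20, adjusted p = 0.000155). Between the breast lines this window was lower in BT483, by -0.68 (SE 0.20, adjusted p = 0.0443). Contact was thus closer to the distance curve in the breast lines and below it in GM06990. These far windows rest on few contacts in BT483 replicate 1, for instance 29 at 216050001 and 18 at 215000001.

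Far toward the telomere the order relative to the distance curves was the other way. With the trans count alone as offset, no window there was called lower in a breast line than in GM06990. All 18 windows from 220300001 to 221200000 were called lower in SUM44 than in GM06990, with a median of -1.10, and 9 of them were called lower in BT483. The median observed over expected contact of these windows was 1.15 and 0.990 in BT483, 0.695 and 0.767 in SUM44, and 1.62 and 1.61 in GM06990. The window from 221000001 to 221050000 changed most, with 0.558 and 0.509 in BT483, 0.511 and 0.567 in SUM44, and 1.42 and 1.65 in GM06990. On the log2 scale it fell by 1.55 in BT483 (SE 0.33, adjusted p = 0.00414). For SUM44 the fall relative to GM06990 was also called (-1.51, SE 0.29, adjusted p = 0.00154). Here GM06990 stood above its distance curve and SUM44 below its own. Other called windows at the ends of the range in BT483 were 220600001 (-1.11), 220300001 (-1.15), 220400001 (-0.88) and 220150001 (-0.87) on the low side, and 214950001 (0.96), 214900001 (0.87) and 215200001 (0.86) on the high side. In SUM44 they were 220600001 (-1.50), 220450001 (-1.29), 220750001 (-1.28) and 222100001 (-1.27), and 214900001 (1.41), 214850001 (1.25), 213250001 (1.11) and 214950001 (1.11).

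Set against each other, the breast lines differed in fewer windows. The window from 221050001 to 221100000 was the most raised in BT483, with 0.612 and 1.32 times its expected contact against 0.602 and 0.461 in SUM44 (log2 change 1.12, SE 0.27, adjusted p = 0.0247). Its BT483 replicates were far apart, on 10 and 176 contacts, and the lower one lay next to SUM44. The window at 216500001 was raised in both BT483 libraries, at 0.628 and 0.573, against 0.349 and 0.308 in SUM44 (log2 change 0.82, SE 0.17, adjusted p = 0.0123). The window at 214850001 was the lowest in BT483, with 0.894 and 0.844 against 1.61 and 1.49 in SUM44 (log2 change -0.87, SE 0.19, adjusted p = 0.0158). The count of 16 calls became 0 without either SUM44 library, 42 without BT483 replicate 1, and 6 and 10 without GM06990 replicates 1 and 2.

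The contact profile of the 11 risk-variant fragments was set against that of the 90 other fragments, a comparison added after the first results. In each of 127 windows the log2 observed over expected contact of the other fragments was taken from that of the risk-variant fragments in each library. Each library's difference over all 202 windows, 0.21 and 0.21 in BT483, 0.14 and 0.14 in SUM44, and 0.28 and 0.30 in GM06990, was then subtracted, and what was left was tested with limma over the 6 libraries. With limma 0 of the 127 windows passed (0% of all), while 15 had an unadjusted p under 0.05. At 217550001 the risk-variant fragments had 4.32 and 2.80 in BT483, 2.31 and 2.34 in SUM44, and 1.67 and 2.01 in GM06990, against 3.01 and 2.12 in BT483, 2.08 and 2.07 in SUM44, and 1.67 and 1.58 in GM06990 for the other fragments. The log2 difference there averaged 0.05 after the subtraction (SE 0.08, adjusted p = 0.702) and 0.26 before it (SE 0.08, adjusted p = 0.124). At 218550001 the difference averaged 0.19 after the subtraction (SE 0.08, adjusted p = 0.369) and 0.41 before it (SE 0.08, adjusted p = 0.0552), and was above 0 in 6 of 6 libraries either way. Without the subtraction 1 window passed with limma, that from 219450001 to 219500000, where the risk-variant fragments were higher by 0.65 (SE 0.08, adjusted p = 0.0438) in 6 of 6 libraries. Without BT483 replicate 2, 21 windows passed, 3 higher and 18 lower. The flanking fragments thus stood above the distance curve in both windows too.

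Single pairs of a captured and a target fragment were called against the distance background of their own line, by negative binomial regression with both replicates summed, adjusted over 690307 pairs. A call needed an adjusted p of at most 0.01 and at least 5 contacts. Fragment length was not a term in the regression. In SUM44 1 pair of the stretch was called, of 3 at 2q35 (0.000435% of all pairs). It joined the captured fragment from 218030974 to 218036250 to the target from 217560727 to 217563272, 472 kb away. The pair had 4 and 13 contacts in BT483, 41 and 33 in SUM44, and 4 and 6 in GM06990. In SUM44 this was 12.7 times the expected count (95% interval 9.98 to 16.0, adjusted p = 0.00638). The call was lost when either SUM44 replicate was left out, which leaves fewer contacts. At an unadjusted p under 0.05 in this regression, 1547 pairs of the stretch had at least 5 contacts in SUM44, of 5900 at 2q35.

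In BT483 0 pairs of the stretch were called, of 4 called at 2q35 (0.000579% of all pairs). By the same regression, 863 pairs of the stretch had at least 5 contacts and an unadjusted p under 0.05, of 2089 at 2q35. The stretch held 101 of the 227 captured fragments there. The strongest pair of BT483 joined the risk-variant fragment from 217912886 to 217925467 to the target from 217563273 to 217565782, 355 kb away. Its captured fragment is the longest risk-variant fragment, and longer fragments held more cis contact per trans contact. The expected count does not allow for that length. This pair had 3 and 24 contacts in BT483, 29 and 21 in SUM44, and 3 and 6 in GM06990. In BT483 it had 11.9 times its expected count (95% interval 7.87 to 17.4, adjusted p = 0.0128), and without the shallow replicate 1, 1 pair of the stretch was called. The same risk-variant fragment and the neighbouring target from 217560727 had 7 and 19 contacts in BT483, 24 and 32 in SUM44, and 3 and 9 in GM06990. Against the distance curves of the replicates, these pairs, in that order, had 12.1 and 11.7 times their expected counts in BT483. They had 5.91 and 6.67 in SUM44, and 3.36 and 4.50 in GM06990. In GM06990 0 pairs were called (0% of all). By the same regression, 984 pairs of the stretch had at least 5 contacts and an unadjusted p under 0.05, of 2856 at 2q35. The strongest pairs of both breast lines thus ended in the same adjoining targets on the centromeric side, and pairs are not replicates.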

How the data were processed

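The deposited values were counts of read pairs that join a captured to a target HindIII fragment, with 1 count column per replicate, and beside each captured fragment its trans count. Positions refer to GRCh37 (hg19) and reads were processed with CASAVA 1.8, per the submitters' processing notes; the aligner was not given in the sources used here. Counts of targets outside the captured region were used without normalisation, and contacts inside it and in coarser bins were not used here. The members and the lists named here were chosen with earlier results of these data known.

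Fragment-side counts were tested with edgeR 4.0.16 (quasi-likelihood, offset log of trans count + 0.5) and side ratios with limma 3.58.1 (pseudocount 1). The 50 kb window counts were tested with edgeR, with the offset from a Poisson cubic spline of log10 distance (4 knots) plus log trans count per replicate and region. Tests covered fragments, fragment-sides or windows of all captured regions with at least 50 contacts in 1 line, with Benjamini-Hochberg adjustment and a threshold of 0.05, and all 6 libraries shared 1 estimate of spread. The risk-variant comparison added 0.5 to observed and expected counts and was centred on each library's difference over all windows. Pairs were called by negative binomial regression (statsmodels 0.14.6 for adjustment). DESeq2 1.42.0, TMM library sizes, a replicate block, other filters, offsets, pseudocounts, windows and each library left out in turn were the alternatives. The fits across fragments, windows and pairs were checked on simulated data, with a spread that was set beforehand and not taken from these libraries. That check gives no error rate for these data, and the risk-variant comparison was not simulated. Depth in the stretch ranged from 10426 to 136496 cis contacts per library.

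Named were all risk-variant fragments, the 3 highest and 3 lowest called fragment-sides whose replicates did not overlap, the 5 highest and 5 lowest called windows per comparison, the 3 fragments leaning most to each side, and called pairs. Windows, target fragments, runs and uncalled pairs named beside these were chosen after their values were seen.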

Additional observations from a re-analysis of the deposited data

Results flagged for a closer look

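The results below differed between the breast lines in a direct test of BT483 against SUM44 with edgeR. All values are log2 changes of BT483 over SUM44.

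In cis contact per trans contact, 6 fragment-sides of the stretch were listed. On the telomeric side the values were -2.45 for the fragment from 218046589 to 218046731, -2.40 for that from 218001032 to 218006233, and -2.38 for that from 218022665 to 218026370. The last of these had 0.060 and 0.127 contacts per trans contact in BT483, against 0.502 and 0.475 in SUM44. On the centromeric side the values were -1.44 for the risk-variant fragment from 217927200 to 217927769, -1.43 for the flanking fragment from 217937503 to 217938483, and -1.40 for the flanking fragment from 217970818 to 217971954. Of the fragment-sides of all regions, 79.4% were called lower in BT483 as well.

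In contact per 50 kb window relative to distance, 9 windows were listed. Those lower in BT483 were centromeric, with -0.87 at 214850001, -0.81 at 214150001, -0.75 at 213950001 and -0.68 at 215000001. Those higher in BT483 were 0.82 at 216500001, on the centromeric side, and 0.98 at 221450001, 0.99 at 221700001, 1.03 at 220900001 and 1.12 at 221050001, on the telomeric side.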

How the results depend on the processing

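Counts are those of the stretch. For cis contact per trans contact, TMM library sizes gave 10 calls in BT483 against GM06990 (0 in the fit reported), 0 in SUM44 against GM06990 (110) and 35 in BT483 against SUM44 (160), and the scaling by the median fragment-side gave 33, 8 and 6. Leaving out 1 library gave 0 to 12, 0 to 183 and 0 to 183. For side ratios in BT483 against GM06990 (3), pseudocount 10 gave 7 and no filter 0, and leaving out 1 library gave 0 to 22, with 0 to 3 in SUM44 against GM06990 and 0 to 7 in BT483 against SUM44. For windows, the trans offset gave 0 in BT483 against GM06990 (43) and 68 in BT483 against SUM44 (16). DESeq2 gave 20, 47 (90 reported in SUM44 against GM06990) and 4, and 100 kb windows 23 in BT483 against GM06990. Leaving out 1 library gave 15 to 50, 35 to 111 and 0 to 42. For risk-variant against other fragments, pseudocount 10 gave 2 windows, no centring 1 and leaving out 1 library 0 to 21. For pairs, Poisson gave 93 in BT483, 875 in SUM44 and 33 in GM06990; in SUM44 a threshold of 0.001 or distance alone gave 0, and leaving out 1 library gave 0 to 1 in BT483, 0 in SUM44 and 0 in GM06990.

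Among named fragment-sides, TMM turned 217948077 telomeric to -0.045, and the median scaling turned it to -0.29, 217970818 centromeric to -0.30 and 217969511 telomeric to -0.28 in SUM44 against GM06990. In BT483 against SUM44 that scaling turned 217927200, 217937503 and 217970818 centromeric to 0.35, 0.35 and 0.36, and the trans offset turned the window at 216500001 to -0.92. The cause was not tested, and 100 kb windows give no value for single 50 kb windows. The replicate block gave 0 calls in each comparison of cis contact per trans contact, 1, 0 and 0 for side ratios, and 40, 90 and 22 for windows. The correlations of replicate differences between lines, -0.083, -0.153 and -0.006, do not pair the samples, which share only a number.

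Leaving out a library leaves its line with 1, which is assumed to vary like the others. Depth limits BT483 replicate 1 most.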

Other observations

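Other runs of adjoining 50 kb windows that were called in 1 direction relative to the distance curves, read after the values had been seen, lay farther out. Toward the centromere, 5 windows from 212900001 to 213150000 were called higher in SUM44 than in GM06990, with a median log2 change of 0.83, while BT483 had a median of 0.48 and 0 calls with edgeR (smallest adjusted p = 0.0782). They held 78 and 720 contacts in BT483, 1102 and 955 in SUM44, and 208 and 268 in GM06990. In BT483, 4 windows from 215100001 to 215300000 were called higher than in GM06990, with a median of 0.70. Of these 4, 3 were also called higher in SUM44, with a median of 0.71 over the 4. None of the 4 was called in BT483 with the trans count alone as offset. In the other direction, 3 windows from 216650001 to 216800000 were called lower in SUM44 than in GM06990 (median -0.55), and all 3 lines lay below the distance curve there, with median observed over expected contact of 0.380 and 0.467 in BT483, 0.297 and 0.304 in SUM44, and 0.465 and 0.490 in GM06990. At the telomeric end, 3 windows from 222450001 to 222600000 (median -0.75) and 4 from 223150001 to 223350000 (median -0.87) were called lower in SUM44 than in GM06990. The medians of BT483 against GM06990 there were -0.20 and -0.38, with 0 calls (smallest adjusted p = 0.467 and 0.131).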
